A study of Mus musculus with 8 samples.

Results

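Hp, Hpx, Lcn2 and Cp encode plasma proteins that bind hemoglobin, heme, iron carriers or copper. In livers of Eps8KO mice the first 3 of these genes had RNA levels far below those of the WT pool. Haptoglobin (Hp) captures hemoglobin that leaks from red blood cells, and hemopexin (Hpx) takes up the heme that escapes this first trap. Lipocalin 2 (Lcn2) holds bacterial siderophores, the small molecules with which microbes collect iron, and ceruloplasmin (Cp) carries most of the copper in plasma and oxidises iron so that it can be loaded onto transferrin. Hepatocytes secrete all of these proteins and raise their synthesis in the acute phase response, mainly under interleukin 6, interleukin 1 and transcription factors of the STAT and C/EBP families. Macrophages clear hemoglobin bound to haptoglobin through the receptor Cd163, and hepatocytes take up heme bound to hemopexin through the receptor Lrp1.

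The 4 genes were selected by their symbols, and they had 6 probes on the array, 1 each for Hp and Hpx and 2 each for Lcn2 and Cp. In all, 8789 genes on 12367 spots had a name. In assembly GRCm38.p6, the RefSeq annotation places Hp on chromosome 8 (109575128 to 109579172), Hpx on chromosome 7 (105591611 to 105600116), Lcn2 on chromosome 2 (32384637 to 32387739) and Cp on chromosome 3 (19956933 to 20009750). The members were picked with their ratios of Eps8KO over WT known, so these ratios are given as a description and were not tested.

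The livers came from 4 male Eps8KO mice, 17 weeks old, which lack Eps8 in all tissues and were backcrossed to C57BL/6, and RNA from livers of male WT mice of the same age was combined into 1 pool, for which the labels disagree on the number of animals. Each Eps8KO mouse was set against this pool on 2 cDNA arrays with swapped dyes, so that 8 arrays stood for 4 mice. An array is called a Cy5 array or a Cy3 array after the dye of its Eps8KO RNA. Values are log2 ratios of Eps8KO over WT, in which 0 means no difference and -1 means a level of 0.5 of that in the pool, and each SD was taken over mice, with both arrays of a mouse averaged first. The paper states that Eps8 is not expressed in liver, and Eps8 was not among the named probes, which leaves the genotype unchecked here. Whole liver was used, so fewer cells of a type and less RNA per cell cannot be told apart. All arrays shared the WT pool, so a lower level in Eps8KO livers and a higher level in mice of the pool cannot be told apart either.

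Each array held 17968 to 18802 values on 20355 spots, with medians from -0.28 to -0.08. As deposited, both arrays of one mouse had an r between 0.0684 and 0.14 across spots, whereas a difference between the genotypes alone would give r below 0. Names of spots rested on a shift of 32 between row numbers and probe numbers, which was found from the values, and the low ratios of acute phase genes, those of Hp, Hpx, Lcn2 and Cp included, took part in finding it. At this shift, 279 probes of ribosomal, respiratory chain, proteasome and translation factor genes, none of them an acute phase gene, ranked least noisy among the 2001 shifts tried (mean noise rank 0.438, against 0.452 at the next lowest and 0.524 without a shift). This rank runs from 0 to 1 and orders spots by their spread between arrays of the same dye orientation. Whether a single spot carries a wrong name was not tested.

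Hp was the lowest of the 4 genes by its gene mean. On the Cy5 arrays its log2 ratio was -2.26, -1.56, -1.28 and -0.38 in mice 1 to 4, and on the Cy3 arrays it was -3.19, -3.50, -3.32 and -4.11. All 8 arrays lay below 0, and the values of the 2 dye orientations did not overlap. The mean was -2.45 ± 0.22 (SD, n = 4 mice), which corresponds to a level 5.46-fold lower in Eps8KO than in WT liver. The SD was smaller than those of most features, as 22.9% of the 15455 features had a smaller one, but it leaves out the gap between the dyes.

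Hpx behaved much like Hp. Its log2 ratio was -1.31, -0.93, -1.12 and -1.04 in mice 1 to 4 on the Cy5 arrays, and -3.00, -2.54, -3.00 and -3.86 on the Cy3 arrays. Again all 8 arrays were below 0 and the orientations stood apart. The mean was -2.10 ± 0.29 (SD, n = 4), a level 4.28-fold lower in Eps8KO liver. Hp and Hpx differed by -0.35 ± 0.43 (Hp minus Hpx, SD, n = 4), which is less than the spread between mice, and Hp was the lower one in 3 of 4 mice.

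Lcn2 had 2 probes of very different quality. Probe 4468 was measured on all 8 arrays and gave -2.32, -2.67, -2.88 and -2.65 in mice 1 to 4 on the Cy5 arrays, and -3.30, -3.82, -2.97 and -2.73 on the Cy3 arrays. All of these values were below -2, the ranges of the 2 orientations overlapped, and the mean of -2.92 ± 0.24 (SD, n = 4) was the lowest of the 6 probes, a 7.55-fold lower level in Eps8KO liver. Probe 1788 had a value on 4 arrays, 1 for each mouse, at -2.85, -1.85 and -1.32 in mice 1, 3 and 4 on the Cy5 arrays and at 0.59 in mouse 2 on the Cy3 arrays. Its mean of -1.36 ± 1.44 (SD, n = 4) therefore mixes orientations between mice. Averaged over both probes, Lcn2 was at -2.14 ± 0.63 (SD, n = 4), 4.40-fold lower in Eps8KO liver and below 0 in 4 of 4 mice.

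The probes of Cp did not give the same picture. Probe 2680 lay at -0.65, -0.17, 0.17 and -0.21 in mice 1 to 4 on the Cy5 arrays and at -1.48, -1.56, -1.51 and -2.10 on the Cy3 arrays. It was below 0 on 7 of 8 arrays, and its mean was -0.94 ± 0.22 (SD, n = 4), 1.92-fold lower in Eps8KO liver. Probe 12140 lay at -0.76, -2.91, -1.76 and -0.58 in mice 1 to 4 on the Cy5 arrays and at 0.48, 1.33, 4.23 and 1.28 on the Cy3 arrays. Its sign followed the dye in all 4 mice, with the Cy3 channel brighter on all 8 arrays, and the mean was 0.17 ± 0.85 (SD, n = 4). The gene mean of Cp was -0.39 ± 0.48 (SD, n = 4), below 0 in 3 of 4 mice, and it rests on 2 probes with means of opposite sign.

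**Figure D1:**
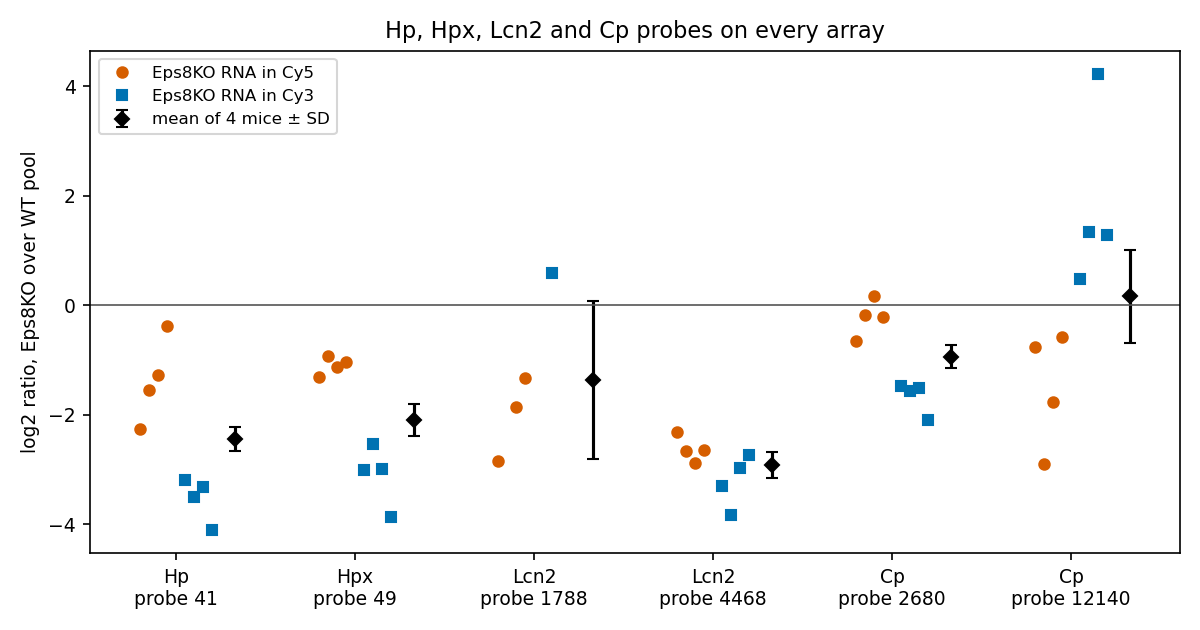
Log2 ratio of Eps8KO over the WT pool (vertical axis) for the 6 probes of Hp, Hpx, Lcn2 and Cp on each array (horizontal axis, mice 1 to 4 from left to right within a colour). Circles are Cy5 arrays, squares Cy3 arrays, and diamonds with bars the mean ± SD of 4 mice. Probes 41, 49 and 4468 lie below 0 on all 8 arrays, and probe 12140 of Cp changes sign with the dye.

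Of the 4 genes, 3 had a ratio below 0 in 4 of 4 mice, as did 1093 of the 15455 features measured in every mouse (7.07%), a feature being a named gene or an unnamed spot. Hp, Hpx and Lcn2 were also below 0 on 8 of 8 arrays, with the probes of Lcn2 averaged on each array, against 67 of 11727 features measured on all arrays (0.571%). These shares stand beside the members as a background alone, since the same ratios chose them. By gene mean, 91 features were lower than Hp, 120 lower than Lcn2, 128 lower than Hpx and 2041 lower than Cp. In this order, neighbours among Hp, Lcn2 and Hpx did not differ beyond their spread: Hp minus Lcn2 was -0.31 ± 0.61 and Hpx minus Lcn2 was 0.04 ± 0.55 (SD, n = 4 mice). Cp stood apart, with Hp, Hpx and Lcn2 below it in 4 of 4 mice, at differences of -2.06 ± 0.39, -1.71 ± 0.63 and -1.75 ± 0.94 (each minus Cp, SD, n = 4 mice).

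**Figure D2:**
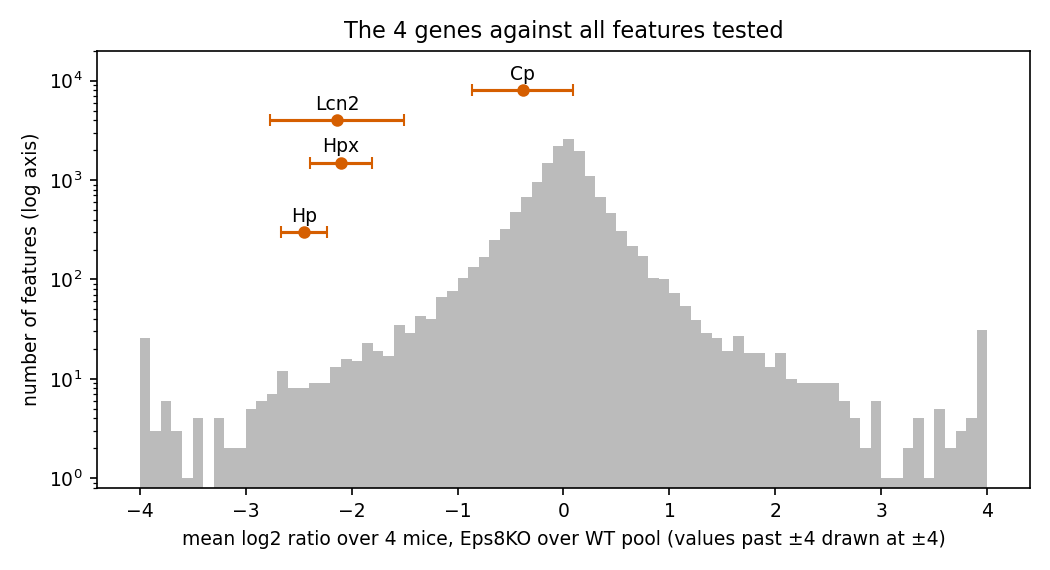
Number of features (vertical log axis) by their mean log2 ratio of Eps8KO over WT (horizontal axis, grey bars, 15455 features, values past 4 drawn at the ends). Points with bars are the gene means of Hp, Hpx, Lcn2 and Cp ± SD between 4 mice, set at arbitrary heights. Hp at -2.45, Lcn2 at -2.14 and Hpx at -2.10 lie in the lower tail, and Cp at -0.39 lies at the edge of the bulk.

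The dye mattered for the size of nearly every ratio above. The means of the 4 Cy5 arrays and of the 4 Cy3 arrays were -1.37 and -3.53 for Hp, -1.10 and -3.10 for Hpx, -2.63 and -3.20 for probe 4468 of Lcn2 and -0.21 and -1.66 for probe 2680 of Cp. Where both orientations of a mouse were measured, their mean without turning cancels the genotype and leaves the difference between Cy5 and Cy3, and this dye effect was tested with limma after each array was centred on its median. Over all 15455 features, it was 1.24 ± 0.64 for Hp (SD, n = 4 mice, unadjusted p = 0.00873, adjusted p = 0.108), 1.16 ± 0.34 for Hpx (unadjusted p = 0.00166, adjusted p = 0.0944) and -0.32 ± 0.53 for Cp (adjusted p = 0.467), whose probes pulled in opposite directions at 0.88 and -1.51. In that fit 10.7% of features had a dye effect above 0 and 14.1% one below 0 at an unadjusted p under 0.05, and 0 passed an adjusted p under 0.05. Features measured in 1 orientation in some mice, among them probe 1788 of Lcn2, keep the genotype in this mean. The fit was therefore repeated over the 11602 features whose probes had values on all 8 arrays, an alternative added after the data were seen. There the adjusted p was 0.0556 for Hp and 0.0426 for Hpx, against 0.102 for Lcn2, with a dye effect of 0.44 ± 0.24 at probe 4468, and 0.40 for Cp. Of these features, 3.46% had a dye effect above 0 and 1.64% one below 0 at an adjusted p under 0.05 (18.7% and 10.9% at an unadjusted p under 0.05). The size of the dye effect of Hp exceeded that of 96.9% of them, that of Hpx 96.3%, that of Lcn2 70.2% and that of Cp 56.8%. An additive dye effect cancels in the turned mean of both orientations of a mouse, and a dye effect of another kind was not tested.

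**Figure D3:**
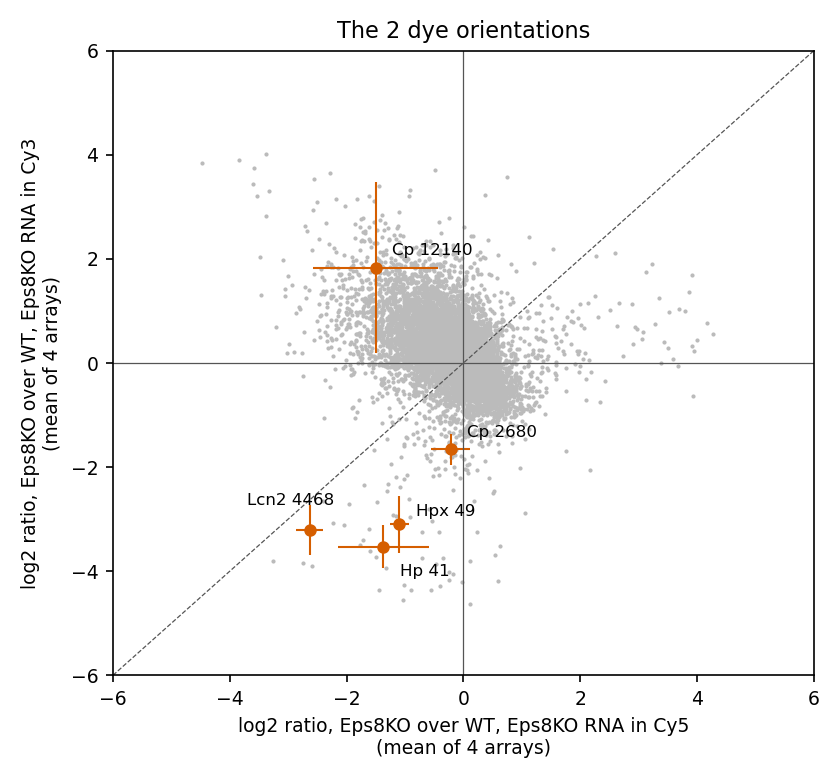
Mean log2 ratio of Eps8KO over WT on the 4 Cy5 arrays (horizontal axis) and the 4 Cy3 arrays (vertical axis). Grey points are 11725 features with a value on all 8 arrays, 2 more lie outside the axes, and coloured points with bars (SD of 4 arrays) are the 5 probes of the 4 genes measured on all arrays. The dashed line marks equal values. Hp, Hpx, Lcn2 probe 4468 and Cp probe 2680 fall in the lower left quadrant, below 0 in both orientations, and Cp probe 12140 falls in the upper left one.

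Spots near the members in the table had medians close to 0. Within 10 rows on either side, the median log2 ratio of the other spots was 0.05 around Hp, -0.09 around Hpx, -0.06 and -0.0034 around probes 1788 and 4468 of Lcn2 and 0.05 and 0.04 around probes 2680 and 12140 of Cp. Probes of the members were left out of these spots, and Hp (row 9) and Hpx (row 17, at -2.10) lay within 10 rows of each other. Among the other spots, the lowest near Hp was at -0.39. A spot lower than the member lay near Hpx (Fgl1 at -2.33), near probe 1788 of Lcn2 (-2.04), near probe 2680 of Cp (-1.98) and near probe 12140 of Cp (-1.30). A value at the upper or lower end of its array was found for 0 of the 6 probes.

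Genes whose ratios were most like those of Hp over the 8 arrays were Orm1, an acute phase lipocalin of plasma, with a mean absolute difference of 0.30 on the log2 scale, Akr1b8, an aldo-keto reductase (0.32), and Dhx58, a sensor of viral RNA (0.57). For Hpx they were Fga, a chain of fibrinogen (0.44), Itih4, a plasma protein of the acute phase (0.49), and Akr1b8 (0.51). For Lcn2 they were Fgl1, a fibrinogen-like protein of hepatocytes (0.66), Orm1 (0.73) and Akr1b8 (0.76). These were chosen by closeness among 6561 named genes with a value on all arrays, so their low ratios follow from the choice. The nearest genes of Cp, Hspb8, Fabp3 and Tex13c3 at 0.26 to 0.30, were at -0.39 ± 0.39, -0.90 ± 1.02 and -0.09 ± 0.62 (SD, n = 4) and below 0 in 3, 3 and 2 of 4 mice.

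Since Hp, Hpx and Lcn2 shared a direction, the 250 bases before their RefSeq starts are shown for Hpx and Lcn2, from assembly GRCm38.p6 and written 5′ to 3′ on the strand of the gene, so that motifs of the acute phase can be read in them. Hp had no entry, and the 2 starts of Cp are given below only by short stretches. Capitals mark matches on either strand to TTNNGNAA, a form of the C/EBP motif.
Hpx, chr7:105600117-105600366, minus strand: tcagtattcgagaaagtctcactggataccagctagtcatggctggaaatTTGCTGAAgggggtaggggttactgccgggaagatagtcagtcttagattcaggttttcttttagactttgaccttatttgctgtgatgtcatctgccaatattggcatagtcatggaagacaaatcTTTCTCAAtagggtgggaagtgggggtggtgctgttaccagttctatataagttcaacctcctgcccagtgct
Lcn2, chr2:32387740-32387989, minus strand: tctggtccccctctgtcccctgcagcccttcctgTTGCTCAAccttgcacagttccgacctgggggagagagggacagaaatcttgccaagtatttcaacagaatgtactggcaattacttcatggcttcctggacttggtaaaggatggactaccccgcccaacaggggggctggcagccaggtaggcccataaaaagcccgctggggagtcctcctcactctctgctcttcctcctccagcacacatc

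The motif TTNNGNAA occurred 2 times before the start of Hpx, from base 200 and from base 73 upstream, and 1 time before that of Lcn2, from base 216. Cp held it 1 time before each of its starts.
Cp, first start, chr3:19956839-19956864, plus strand: tttgttagtTTTCTAAAaatcattaa
Cp, second start, chr3:19957170-19957195, plus strand: tagttactcTTTTGCAAcattaaatt
The second start of Cp also had TATAAA, the TATA box, from base 25 upstream, overlapping a match on the other strand. No match to CTGGGAA, a core of interleukin 6 response elements, to TTCNNNGAA, the spacing bound by STAT factors, or to the NF-kB motif was found in any of these windows. Among 32851 windows of the same length, 36.8% held TTNNGNAA, 9.1% CTGGGAA, 7.02% TTCNNNGAA, 1.21% the NF-kB motif and 12.4% TATAAA, all on either strand. TTNNGNAA is thus common by its short letters, and these matches describe the sequence and not a bound factor.

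The question then was whether other genes of the same pathways shared the low ratios. With limma on the 4 mice, 478 of 15455 features were lower (3.09%) and 333 higher (2.15%) in Eps8KO liver at an unadjusted p under 0.05, and 0 passed an adjusted p under 0.05. A change of 1.6-fold besides the unadjusted p left 243 lower (1.57%) and 164 higher (1.06%). A fit on 8 arrays with a dye term, which took the arrays of a mouse as nearly independent, called 30 lower and 5 higher at an adjusted p under 0.05. Across the lists below, 8 of 106 measured genes were lower and 3 higher at an unadjusted p under 0.05, and 0 at an adjusted p under 0.05 on the 4 mice. The median over all features was 0.02.

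Of 6 measured genes of hemoglobin and heme clearance, 1 was lower and 0 higher, with a median of -0.06. The lower one was Ambp, the precursor of the heme-binding plasma protein alpha-1-microglobulin, at -0.65 ± 0.16 (SD, n = 4 mice, unadjusted p = 0.00467, adjusted p = 0.75). Its sign depended on the dye, with 0.26 on the Cy5 arrays and -1.56 on the Cy3 arrays. Hmox1, which breaks down heme, was at -0.13 ± 0.11 and Alb, the albumin that binds heme at low affinity, at 0.30 ± 0.32. Lrp1, the receptor for hemopexin, was near 0 in mice 2 to 4 at -0.02, -0.11 and -0.0077, but at 5.14 in mouse 1, and Cd163 had no named probe. None of 11 genes of heme synthesis and transport passed (median -0.13). Alas1, the first enzyme of heme synthesis in liver, was at -0.27 ± 0.68, Fech, which inserts the iron, at -0.18 ± 0.23, Hebp1, a cytosolic heme binder, at 0.27 ± 0.22 and Flvcr2, a membrane transporter, at -1.03 ± 1.41 on 4 arrays.

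Of 21 genes of iron transport, storage and sensing, 1 was lower and 1 higher (median -0.14). Slc39a14, a zinc and iron importer of hepatocytes, was at -0.46 ± 0.31 (SD, n = 4, unadjusted p = 0.044, adjusted p = 0.906), with -0.0070 on the Cy5 arrays and -0.92 on the Cy3 arrays. Heph, the membrane-bound relative of ceruloplasmin that oxidises iron, was at 1.11 ± 0.84 on 7 arrays (unadjusted p = 0.0316, adjusted p = 0.906) and above 0 in 4 of 4 mice. It lay at 1.28, 2.76, 1.10 and 2.31 on the Cy5 arrays but at 0.87, -1.47 and -0.25 on the Cy3 arrays of mice 1 to 3, and the unadjusted p was 0.0846 without mouse 1 and 0.0533 without mouse 2. Hamp, the hormone hepcidin that closes the iron exporter, was at -0.16 ± 0.58 and the ferritin chains Fth1 and Ftl1 at 0.04 ± 0.13 and -0.05 ± 0.17. Trf, the transferrin, was at -0.58 ± 0.74, Slc11a2, an iron importer, at -0.30 ± 0.22, and Slc22a17, a receptor for Lcn2, at -0.08 ± 0.08. Values at the upper end of an array entered Iscu, Ltf and Pcbp2, whose SD was 3.45, 2.36 and 2.57.

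Of 11 genes of copper handling, 2 were lower and 1 higher (median -0.10), the higher one again Heph. Mt1, one of the metallothioneins that store zinc and copper, was at -3.53 ± 0.44 (SD, n = 4, unadjusted p = 3.07e-05, adjusted p = 0.119) and Mt2 at -1.26 ± 0.43 (unadjusted p = 0.0025, adjusted p = 0.635), both below 0 in 4 of 4 mice. The 2 probes of Mt2 disagreed: probe 11928, with a value on 7 arrays, lay between -4.76 and -0.66, and probe 13639, with a value on all 8, between -0.48 and 0.25. With all 8 values required, Mt2 was at -0.10 (unadjusted p = 0.391). Mt1 lay below 0 in both orientations, at -3.26 on the Cy5 arrays and -3.79 on the Cy3 arrays. In the fit with a dye term, which took the arrays of a mouse as nearly independent, Mt1 and Orm1 had an adjusted p of 0.000222 and 0.0003. In the limma fit on the 4 mice the adjusted p was 0.119 and 0.143. Sod1, the copper and zinc superoxide dismutase, was at -0.07 ± 0.12, its copper chaperone Ccs at -0.24 ± 0.15 and Slc31a1, the copper importer, at -0.54 ± 0.90. Sod1 and Ccs were at 0.47 and 0.22 on the Cy5 arrays and at -0.60 and -0.71 on the Cy3 arrays. Atox1, a copper chaperone, was at -4.62 ± 7.93 on 5 arrays, 1 of them with a value at the upper end of the array.

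Among relatives of Lcn2, the lipocalins together with fatty acid binding proteins of a similar fold, 4 of 10 measured genes were lower and 0 higher (median -0.39). Orm1 was at -2.63 ± 0.35 (SD, n = 4, unadjusted p = 5.65e-05, adjusted p = 0.143), in the range of Hp, and its log2 ratio was -1.78 on the Cy5 arrays and -3.49 on the Cy3 arrays. Besides Ambp, Apom, an apolipoprotein of high-density lipoprotein, was lower at -0.34 ± 0.13 (unadjusted p = 0.0369, adjusted p = 0.906). The fourth was Fabp4, an adipocyte fatty acid binding protein named after its value was seen, at -0.44 ± 0.31 (unadjusted p = 0.047, adjusted p = 0.906). Apom and Fabp4 were at 0.44 and 0.01 on the Cy5 arrays. Orm2 was at 0.20 ± 0.70, below 0 in 3 of 4 mice and at 1.24 in mouse 3. Its sign followed the dye, with -0.69 on the Cy5 arrays and 1.08 on the Cy3 arrays. Orm1 and Orm2 are close paralogs whose transcripts a cDNA probe may not separate.

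Of 19 regulators of the acute phase genes, inhibitors such as Il1rn and Nfkbia among them, 1 was lower and 0 higher (median -0.08). Tnfrsf1a, a receptor for tumour necrosis factor, was at -1.34 ± 1.05 on 7 arrays (unadjusted p = 0.0339, adjusted p = 0.906). It lay at -2.43, -3.70, -0.22 and -2.37 on the Cy5 arrays but at -0.21, 0.02 and 0.60 on the Cy3 arrays of mice 2 to 4, and the unadjusted p was 0.0958, 0.113 and 0.0687 without mouse 1, 2 or 4. Stat3 was at 0.16 ± 0.53 and Cebpd at -0.08 ± 0.25. On the Cy5 and the Cy3 arrays, Stat3 was at -0.38 and 0.41 and Cebpd at -0.90 and 0.735. The interleukin 6 receptor chain Il6st was at 0.01 ± 0.26, with 0.41 and -0.38 in these orientations. Cebpa was at 0.33 ± 0.27 and Nfkbiz, a partner of NF-kB, at -0.44 ± 0.40. Among cytokines, Il6 was at -0.93 ± 1.35 on 5 arrays, Il1b at -0.18 ± 0.71 and Tnf at 0.70 ± 1.24. Nfkbia was at -0.77 ± 1.47. None of these passed in the fit on the 4 mice. Nfkbiz was at -1.26 on the Cy5 arrays (unadjusted p = 0.0121) and 0.37 on the Cy3 arrays (unadjusted p = 0.0471), and Cebpa at 0.95 (unadjusted p = 0.00667) and -0.28 (unadjusted p = 0.304).

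**Figure D4:**
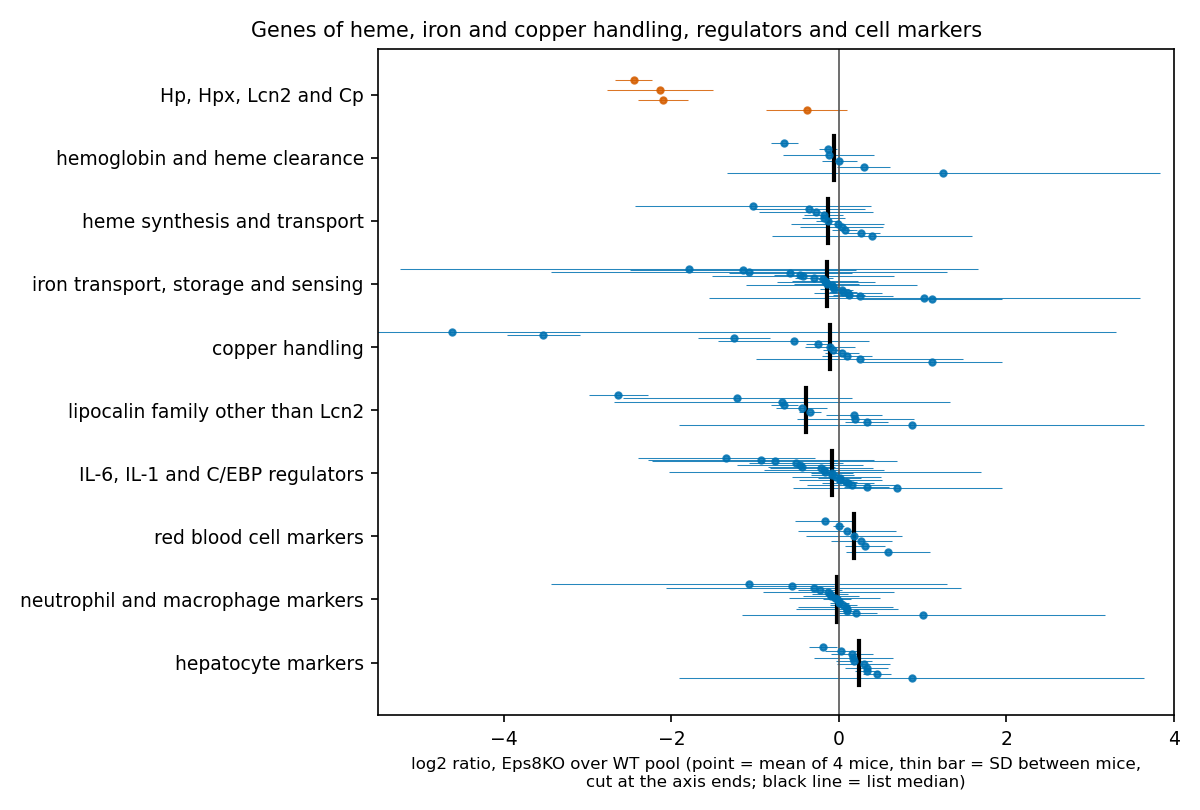
Log2 ratio of Eps8KO over WT (horizontal axis) of Hp, Hpx, Lcn2 and Cp in the top row and of the measured genes of 9 lists below. Points are means of 4 mice, thin bars the SD between mice and black lines the list medians, which run from -0.39 to 0.24. Hp, Lcn2 and Hpx lie below all list genes but Mt1 at -3.53, Orm1 at -2.63 and Atox1 at -4.62, whose SD of 7.93 runs past the axis.

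Markers of cell types were examined because Hp and Hpx come from hepatocytes and Lcn2 also from neutrophils, and because hemoglobin itself comes with blood. Arrays of this kind give ratios and not levels, so the tissue label could not be checked on marker levels. Of 10 hepatocyte markers, 2 were higher and 0 lower, with 1 below 0 (median 0.24). Over all features, 7295 of 15455 lay below 0 (47.2%). Ass1, of the urea cycle, was at 0.46 ± 0.17 (SD, n = 4, unadjusted p = 0.0177, adjusted p = 0.893) and Apoa1, the main protein of high-density lipoprotein, at 0.34 ± 0.14 (unadjusted p = 0.0417, adjusted p = 0.906), with 1.17 and 1.32 on the Cy5 arrays and -0.25 and -0.64 on the Cy3 arrays. Hp and Hpx differed from the median of these markers by more than 2 on the log2 scale. They were chosen with these ratios known, so this gap is a description, and the share of hepatocytes was not tested. Of 17 neutrophil and macrophage markers, 0 were higher or lower at an unadjusted p under 0.05, and 9 lay below 0 (median -0.02, range -1.07 to 1.01). S100a8 and S100a9, abundant in neutrophils, were at -0.09 ± 0.33 and -0.22 ± 0.26 and Mmp8 at 0.21 ± 0.25. Mpo, Camp and Elane, of neutrophil granules, were at 0.08 ± 0.57, -0.13 ± 0.78 and -0.05 ± 0.55. C1qa, of macrophages, was at -0.56 ± 0.50 on 7 arrays. It lay at -1.13 on the Cy5 arrays but at 0.94, -0.59 and 0.08 on the Cy3 arrays of mice 1, 3 and 4. Other macrophage markers did not share its value, with C1qc at 0.10 ± 0.12, Clec4f at 0.05 ± 0.16, Marco at -0.10 ± 0.22 and Cd5l at 1.01 ± 2.17. Of 7 red blood cell markers, 0 were higher or lower at an unadjusted p under 0.05, and 2 lay below 0 (median 0.18). Hba-a1, a hemoglobin chain with 6 probes, was at 0.10 ± 0.59 and Alas2, the first enzyme of heme synthesis in red cell precursors, at -0.0015 ± 0.07. On the Cy5 and the Cy3 arrays, Hba-a1 was at 0.77 and -0.58 and Alas2 at 0.34 and -0.34. Klf1 was at 0.31 ± 0.24, with 0.20 on the Cy5 arrays and 0.43 on the Cy3 arrays, and below 0 in 0 of 4 mice. Bpgm was at 0.27 ± 0.36 and Slc4a1, the anion exchanger of the membrane, at 0.59 ± 0.50 (unadjusted p = 0.0563). Slc4a1 was at -0.46 on the Cy5 arrays and 1.64 on the Cy3 arrays, and it was higher without mouse 1, at 0.83 (unadjusted p = 0.00985), and with all 8 values required (unadjusted p = 0.0383).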

How the data were processed

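For every spot of the 2-colour cDNA arrays the authors deposited a log2 ratio, Cy5 over Cy3. Their methods name MIDAS with total intensity normalisation, background checking, a policy on bad values and a flip dye check, but array means in the table lay between -0.39 and -0.18 and it is not stated whether these steps precede the table. The signal behind a single spot is unknown. The replicates were the 4 mice and not the 8 arrays, so precision is set by how many mice there are. No value column was left unused (0).

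The probe table held 12398 probes with 1 symbol, all matched by gene ID to RefSeq (GRCm38.p6). Probe number was taken as row number plus 32. On Cy3 arrays the sign was turned. Values were averaged within a mouse, next over probes of the same gene, and features with a value in 4 mice were fitted with lmFit and eBayes of limma 3.58.1 (R 4.3.3), testing the mean of 4 mice against 0 (two-sided), and p-values were adjusted over all features by Benjamini-Hochberg. The WT pool counts as 1 control sample, so its own spread is left out. SAM, which the methods name without settings, was not run. The members and gene lists were chosen with earlier results of these data known. Named genes are the probes of the members, in each list the 3 genes of smallest p, genes past 1.6-fold with an unadjusted p under 0.05 and the 3 genes nearest to each member; other list genes given with values were picked for their known role after values were seen. Alternatives covered centring, missing values, the flip dye limit, each orientation, probe averaging, limit values, names without the shift, a dye term with a mouse block, complete probes for the dye effect, thresholds and leaving out each mouse. The fit was tested on simulated data. Python 3.11.15, NumPy 2.4.6, pandas 2.3.3 and Matplotlib 3.10.9 were used.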

Additional observations from a re-analysis of the deposited data

Results flagged for a closer look

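Among 33 sets of 4 mice examined (the probes and gene means of the members and the named genes of the lists), 1 held a mouse far from the others: Lrp1, the receptor for hemopexin, was at 5.14 in mouse 1 and between -0.11 and -0.0077 in the other mice, a gap of 0.98 of the whole range. A mouse was flagged when its gap passed a critical value, which chance passes in about 1 of 20 sets of this size. The gap of Lrp1 lay past this value, and how often chance gives a gap of 0.98 was not tested. One of its 3 probes, number 20342, had the highest value of an array, 15.8, on the only array on which it was measured in mouse 1, while probes 5057 and 17544 lay between -0.61 and 0.59 in mice 1 to 3. List genes outside the naming rule were not in these sets, and some of them also had 1 distant mouse. Iscu was at -6.96 in mouse 2 and between -0.22 and 0.18 in the others. Ltf was at -4.59 in mouse 1 and between -0.16 and 0.46 in the others. In mouse 3, Slc31a1 was at -1.89 and Orm2 at 1.24, against -0.21 to -0.025 and -0.27 to -0.037 in the others.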

How the results depend on the processing

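Hp and Hpx kept their direction under centring of the arrays, in either dye orientation and without any single mouse. The Cy5 arrays and the Cy3 arrays gave -1.37 and -3.53 for Hp and -1.10 and -3.10 for Hpx, and the Cy3 arrays gave 0.086 for Cp, the opposite sign. A flip dye limit of 1, which drops spots whose 2 arrays disagree, left 1 mouse each for Hp (-2.72) and Cp (-1.06) and none for Hpx. Names without the shift gave -0.16 for Hp, 0.47 for Hpx, 0.42 for Lcn2 and 0.32 for Cp. Probes with all 8 values gave -2.92 for Lcn2. By single probes, an alternative added after the data were seen, Lcn2 was at -1.36 (1788) and -2.92 (4468) and Cp at -0.94 (2680) and 0.17 (12140). Leaving out each mouse gave -2.52 to -2.36 for Hp, -2.22 to -1.98 for Hpx, -2.41 to -1.91 for Lcn2 and -0.61 to -0.24 for Cp.

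Over all features, calls at an adjusted p under 0.05 numbered 11 lower and 1 higher with all 8 values required, 8 and 3 on the Cy3 arrays, and 30 and 5 with a dye term and the mouse as a random block. At an unadjusted p, 132 were lower and 111 higher among the 5351 features left by the flip dye limit, 1661 and 612 on the Cy5 arrays, 906 and 1921 on the Cy3 arrays, and 243 and 164 with a fold of 1.6 as well. Among the list genes, 0 were lower and 0 higher among the 44 left by the flip dye limit, 13 lower and 19 higher on the Cy5 arrays, 20 lower on the Cy3 arrays and 5 higher with the dye term. Leaving out each mouse gave 5 to 7 lower (5 without mouse 3 or 4) and 1 to 4 higher (1 without mouse 2 or 3). Ambp (0.26) and Apom (0.44) changed sign on the Cy5 arrays, and Apoa1 (-0.64) and Ass1 (-0.25) on the Cy3 arrays. Of named list genes not called, Fech (0.29) and Slc4a1 (-0.46) changed sign on the Cy5 arrays, Cebpa (-0.28), Fabp1 (-0.41), Hebp1 (-0.22), Nfkbiz (0.37) and S100a9 (0.31) on the Cy3 arrays, and Lrp1 with all 8 values required (-0.05) and without mouse 1 (-0.05). The dye effect passed an adjusted p under 0.05 for 190 features below 0 and 401 above 0 with all 8 values required. The cause of these changes was not tested. In the other settings of named list genes, 196 values kept their direction and side of the threshold, 16 gained the call and 21 lost it. All RNA of the WT livers was 1 pool, so an Eps8KO mouse could not be paired with a single WT mouse. The 2 arrays of a mouse were kept together by averaging them.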
